A study of Mus musculus with 10 samples.

Results

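The genes described here encode the classical guidance cues and their receptors. These are semaphorins with plexins and neuropilins, ephrins with Eph receptors, Slits with Robos, and netrins with Dcc and the Unc5 receptors. The netrin-Gs, which have other binding partners, were included too. A symbol pattern chose all these genes, with no measured value in the rule. The gene group was proposed, though, with earlier results of these data known. Of 71 such genes in the mouse annotation, 69 had a row in the count table of 14276 genes, and Efna4 and Ntn3 had none. The members comprised 20 semaphorins, 11 plexins and neuropilins, 7 ephrins, 14 Eph receptors, 3 Slits, 4 Robos, 3 netrins, 2 netrin-Gs, and 5 genes of the Dcc and Unc5 group. Each of them, like every gene of the table, had at least 0.582 CPM in at least 5 libraries.

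RNA was measured by sequencing rRNA-depleted total RNA of the cerebral cortex of C57BL/6 mice at 3 months of age. Brap encodes a ubiquitin ligase that binds the KSR scaffold and restrains signalling from Ras to MAP kinase. The group named BrapcKO held 3 flox/ko Cre+ libraries (04, 07 and 21) and 2 flox/flox Cre+ libraries (05 and 06), and the control group held 3 flox/wt Cre- libraries (08, 22 and 23) and 2 flox/flox Cre- libraries (09 and 24). In this notation flox is an allele that Cre recombinase can delete, ko a deleted allele and wt the intact one. All 10 libraries thus carried at least 1 floxed allele, and Cre was present in every BrapcKO library and in no control, so Cre and the deletion cannot be told apart. The labels do not name the promoter that drives Cre, the deleted exons or whether each library is a separate animal. The p-values therefore measure the spread between libraries, which may be partly technical.

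Library titles carry a code, B1 or B2, that the labels do not explain. The 6 B1 libraries (control 08 and 09, BrapcKO 04, 05, 06 and 07) had totals of 17188901 to 20955211 counts. Totals were higher in the 4 B2 libraries (control 22, 23 and 24, BrapcKO 21), at 26356508 to 28991874. Brap itself stood at 76.7 to 98.6 CPM (counts over each library's total, scaled to the same size) in the control libraries and at 89 to 110.5 CPM in the libraries labelled BrapcKO, so its level did not mark the deletion. Whether these reads came from outside the deleted part cannot be told. Reads of Y-linked genes were high in control 23 and in BrapcKO 05, 06, 07 and 21 and near 0 in the other libraries, so the sex of the animals was uneven between the groups. Members were tested in edgeR (quasi-likelihood F test, title code and group as terms), and a gene was called when its p, adjusted over all 14276 genes, was under 0.05. CPM values are scaled by TMM, and each list of library values below runs in the order 08, 09, 22, 23 and 24 for control and 04, 05, 06, 07 and 21 for BrapcKO.

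In the embryo these proteins steer growing axons: a cue on a cell surface or in the matrix binds a receptor on the growth cone and changes its actin skeleton. Eph receptors are receptor tyrosine kinases bound by membrane-anchored ephrins, and both partners signal into their own cell. Many of the genes stay on in the adult cortex, where EphB receptors and EphA4 act at dendritic spines and excitatory synapses, and secreted class 3 semaphorins act on dendrites and spines through neuropilins and plexins.

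Of the 69 guidance genes, 15 were called between the groups, 13 lower and 2 higher in BrapcKO. The 15 make up 21.7% of the members, and 8.07% of all genes tested were called. Lower calls took 18.8% of the members beside 4.95% of all genes, and higher calls 2.9% beside 3.12%. The receptors Ephb3, Ephb2, Ephb1, Epha4, Plxnc1, Robo2 and Dcc fell, as did the cues Ntn5, Sema4c, Sema3f, Sema7a, Sema4f and Slit2, while Sema4a and Ntn1 rose. The median log2 fold change was -0.11 over the members and 0.01 over all genes, with 48 members negative and 21 positive. Receptors held 7 lower and 0 higher calls among 34, with 12 at an unadjusted p under 0.05 in the edgeR test. Ligands held 6 lower and 2 higher calls among 35, with 15 at an unadjusted p under 0.05. Over all 14276 genes, 3166 had an unadjusted p under 0.05 in the same test. Without title code in the fit, 4 members were called, Ephb1, Ephb3, Ntn5 and Sema4a. That is 5.8% of the members beside 4.32% of all genes, so the other 11 calls rest on that term.

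**Figure D1:**
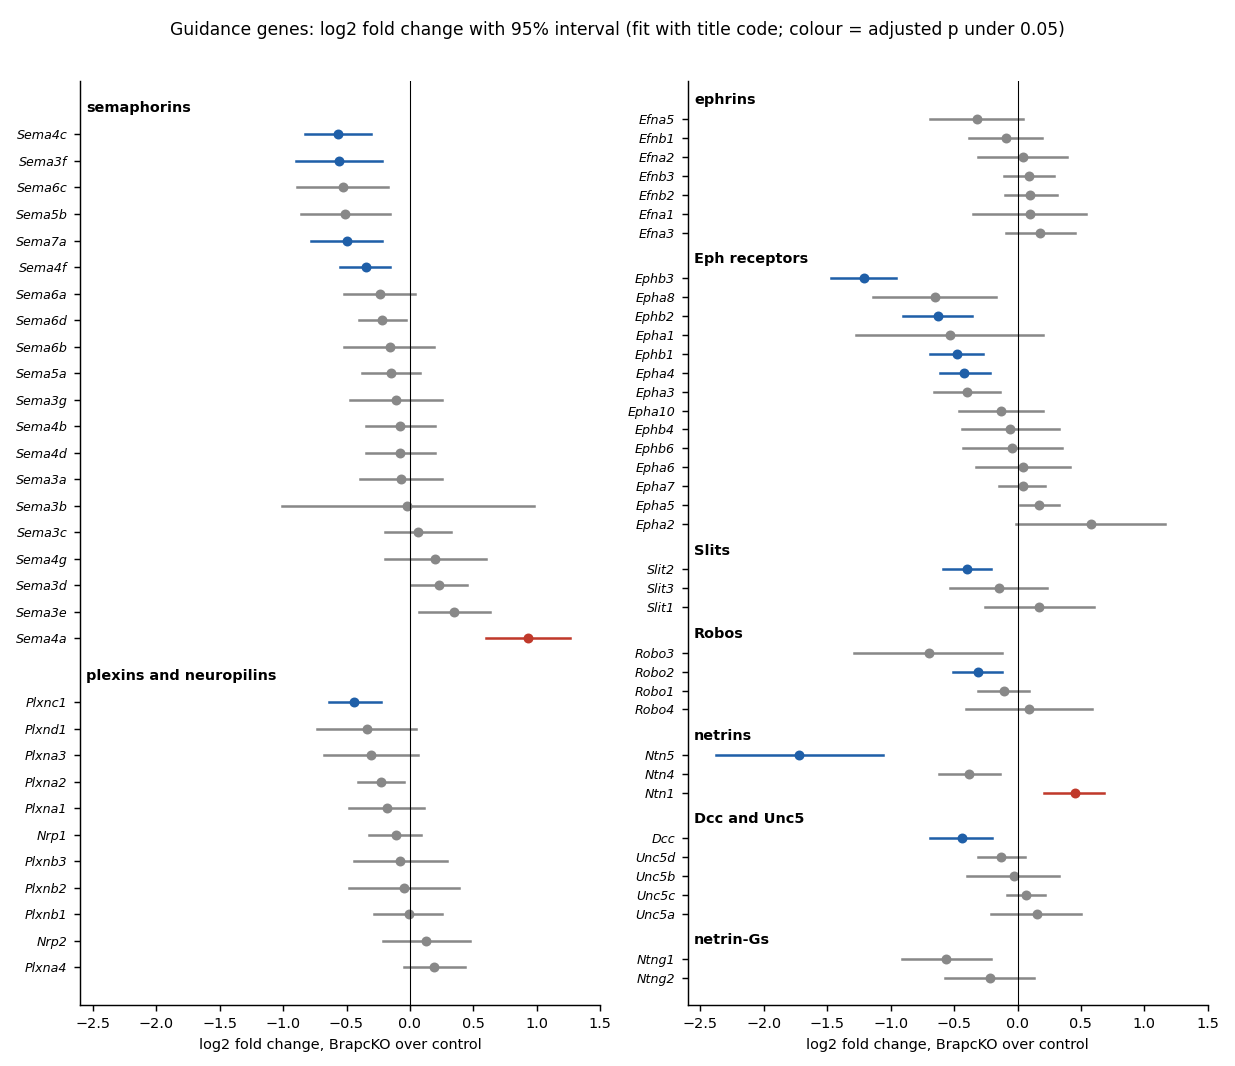
Each point is the log2 fold change of a guidance gene, BrapcKO over control, from the edgeR fit with title code, with its 95% interval as a line and the genes grouped by family. Coloured points are the 15 called members, of which 13 lie left of 0 (blue) and 2 right of it (red), and all 7 ephrins are grey.

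In 5 members the libraries labelled BrapcKO all lay below every control library: Ephb1, Ephb3, Epha4, Ntn5 and Plxnc1. That is 7.25% of the members, beside 3.71% of all genes. In 2 members, Sema4a and Sema3e, all BrapcKO libraries lay above the controls, or 2.9% beside 3.12% of all genes. For Plxnc1 the gap was narrow, between 92 CPM in BrapcKO 07 and 92.1 CPM in control 23.

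The genes whose groups lay furthest apart, together with Ephb2, the other EphB receptor that fell, are shown by the bases just before their RefSeq start sites (GRCm38.p6), 5′ to 3′ along the gene's strand, so that the 3 EphB receptors can be read beside the netrin that fell and the semaphorin that rose. Capitals mark matches to the ETS core CCGGAA or the GC box GGGCGG on either strand, and bases annotated as exon were left out. Ephb1 is chr9:102354695-102354943 on the minus strand, Ephb2 is chr4:136836013-136836262 on the minus strand, and Ephb3 is chr16:21204545-21204754 on the plus strand. Ntn5 is chr7:45683772-45684021 on the plus strand, and Sema4a, at 1 of the 4 starts in the table, is chr3:88459102-88459351 on the minus strand.
Ephb1: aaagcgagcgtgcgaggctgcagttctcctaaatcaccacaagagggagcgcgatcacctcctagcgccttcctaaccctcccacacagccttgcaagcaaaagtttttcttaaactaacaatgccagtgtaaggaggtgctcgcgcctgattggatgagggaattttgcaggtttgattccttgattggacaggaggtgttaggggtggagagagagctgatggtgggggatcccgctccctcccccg
Ephb2: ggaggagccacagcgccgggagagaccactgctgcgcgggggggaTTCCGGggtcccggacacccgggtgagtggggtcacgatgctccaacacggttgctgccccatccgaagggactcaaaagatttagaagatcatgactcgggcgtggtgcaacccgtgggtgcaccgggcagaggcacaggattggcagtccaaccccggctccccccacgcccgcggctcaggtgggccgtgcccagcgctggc
Ephb3: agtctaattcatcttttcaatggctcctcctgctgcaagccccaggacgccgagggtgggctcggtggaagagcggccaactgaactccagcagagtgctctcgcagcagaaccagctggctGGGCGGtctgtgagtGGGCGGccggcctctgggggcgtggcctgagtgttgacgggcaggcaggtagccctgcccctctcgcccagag
Ntn5: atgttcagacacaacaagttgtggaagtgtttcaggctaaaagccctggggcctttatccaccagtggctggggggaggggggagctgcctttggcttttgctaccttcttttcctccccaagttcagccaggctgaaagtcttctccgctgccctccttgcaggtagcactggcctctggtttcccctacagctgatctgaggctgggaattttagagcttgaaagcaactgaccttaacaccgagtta
Sema4a: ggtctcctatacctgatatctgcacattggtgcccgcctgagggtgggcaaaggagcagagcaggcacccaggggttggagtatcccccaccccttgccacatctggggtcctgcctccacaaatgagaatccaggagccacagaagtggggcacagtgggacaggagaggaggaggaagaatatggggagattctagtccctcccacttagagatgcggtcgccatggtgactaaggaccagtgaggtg
The Ephb2 window held 1 ETS core, the Ephb3 window 2 GC boxes, and the other 3 windows neither motif. A search of both strands for 5 motifs covered 59 members with a RefSeq window upstream of a start, 12 of them called. The ETS core was in windows of 7 of the 59 members (11.9%) and of 23.3% of the 11159 genes of the count table with a window. Among the called members it was in Ephb2 and, at another start than the one printed, Sema4a. The AP-1 site TGANTCA was in 3 of the 59 (5.08%, 5.48% of the genes), among the called members in Sema4c. The CRE TGACGTCA was in 1 and the EGR site GCGTGGGCG in 2 members (1.69% and 3.39%, beside 2.99% and 1.17% of the genes), in both cases in no called member. The GC box was in 44 of the 59 members (74.6%) and in 62.8% of the genes, and in 7 of the 12 called members. Of all 32851 windows of the same design, 12% held the ETS core, 6.75% the AP-1 site, 1.55% the CRE, 0.536% the EGR site and 32.7% the GC box. A match is a run of letters, not a bound site.

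Among Eph receptors, 4 of 14 were called, all lower, and 3 of those were EphB receptors (3 of 5), which bind the transmembrane ephrin-Bs. Ephb3 (chr16:21204755-21223305, plus strand, GENCODE M21 on GRCm38) encodes an EphB receptor known for axon crossing and for positioning of epithelial and progenitor cells. It stood at 26.9, 34.4, 22.9, 28.2 and 25.9 CPM in control and at 12.2, 14.5, 12.4, 11.1 and 12.1 CPM in BrapcKO. The highest BrapcKO library lay well below the lowest control. By the fit Ephb3 fell by 56.9% (log2 fold change -1.21, SE 0.12, adjusted p = 0.00013), the smallest p of the members. The exact permutation test within title code put the observed arrangement first of 60 (two-sided p = 0.017, the smallest that 60 arrangements can give). Among the 15 called members 14 reached that p and Sema7a gave 0.033, which describes the same difference that the call rests on and adds no independent support.

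Ephb1 and Ephb2 encode receptors known at excitatory synapses, where EphB kinases bind NMDA receptors. Ephb1 (chr9:101922128-102354693, minus strand) measured 39.6, 39.1, 41.7, 42.1 and 40.3 CPM in control, within a narrow band, and at 24, 31.6, 26.6, 32.2 and 28.9 CPM in BrapcKO. It fell by 28.4% (log2 -0.48, SE 0.10, adjusted p = 0.0095), and the groups did not overlap. Ephb2 (chr4:136647539-136835988, minus strand) measured 30.8, 38.9, 26.3, 29 and 35.3 CPM in control and at 24.1, 27.3, 24, 21.4 and 17.2 CPM in BrapcKO. Here BrapcKO 05 lay above the lowest control, so the groups overlapped by a single library on each side. The fit gave a fall of 35.4% (log2 -0.63, SE 0.12, adjusted p = 0.0082), and the call was lost without the title code (adjusted p = 0.075), without control 09 (0.06) or without BrapcKO 21 (0.073). Ephb1 lost its call without BrapcKO 21 alone (0.065). The remaining EphB members showed log2 fold changes of -0.06 for Ephb4, a receptor of the vascular endothelium, and -0.04 for Ephb6, a receptor without kinase activity, with adjusted p of 0.89 and 0.93.

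Of the 9 EphA receptors, Epha4 was called. It encodes a receptor that binds ephrins of both classes and is known for regulating dendritic spines in contact with astrocytes. Per exon length Epha4 had the highest mean of the members in both groups, though its control range overlapped that of Sema7a. Epha4 stood at 474, 492, 442, 480 and 429 CPM in control and at 418, 358, 423, 375 and 290 CPM in BrapcKO. All BrapcKO libraries were lower, though BrapcKO 06 came within a few CPM of control 24. The fall was 25.1% (log2 -0.42, SE 0.09, adjusted p = 0.014), and without BrapcKO 21, the lowest library, the adjusted p was 0.13.

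Epha3 and Epha8 missed the threshold. Epha3 averaged 31.9 ± 2.02 CPM (SD, n = 5) in control and 25 ± 4.29 in BrapcKO (log2 -0.40, adjusted p = 0.063), and Epha8 averaged 6.74 ± 0.861 and 4.3 ± 1.39 CPM (log2 -0.65, adjusted p = 0.1). DESeq2 called both, with adjusted p of 0.022 and 0.045. Over the 9 EphA receptors 5 log2 fold changes were negative and 4 positive, from -0.65 to 0.58, the highest being that of Epha2, which was expressed at the bottom of the range.

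No ephrin passed the test: of 7, 0 were called by edgeR, and 0 had an unadjusted p under 0.05. Their log2 fold changes ran from -0.32 to 0.18 with a median of 0.09. DESeq2 and limma-voom also called none of them. Efna5, a GPI-anchored ephrin known for mapping cortical and retinal axons, averaged 26.3 ± 7.95 CPM in control and 24.8 ± 6.33 CPM in BrapcKO. The 95% interval of its log2 fold change ran from -0.69 to 0.04, so a fall of the size seen in Ephb1 lies inside it. For Efnb3, the ephrin with the highest mean CPM and a known cue of the corticospinal midline, the interval ran from -0.11 to 0.29. Efna3, a ligand of EphA receptors, shared 14.13% of its exon length with the predicted gene Gm15998. Its interval ran from -0.09 to 0.45.

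Semaphorins gave 5 calls among 20 members, 1 higher and 4 lower, with a median log2 fold change of -0.13. Sema4a (chr3:88435959-88461182, minus strand), a membrane-bound class 4 semaphorin that binds plexins and is known from the retina, vessels and immune cells, stood at 38.4, 37.6, 25.8, 29.1 and 32 CPM in control. In BrapcKO it stood at 64.1, 45, 63.7, 61.3 and 78.2 CPM. Every BrapcKO library lay above every control, with BrapcKO 05 lowest and BrapcKO 21 highest. The rise was 90.7% (log2 0.93, SE 0.15, adjusted p = 0.0036), and leaving out any single library kept it called, with adjusted p between 0.00082 and 0.049. Its size was smaller without BrapcKO 21 (log2 0.62) and in B1 libraries alone (0.63), where edgeR did not call it (adjusted p = 0.063).

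The other class 4 calls went the opposite way. Sema4c, a transmembrane semaphorin that binds plexin B2, stood at 18.2, 15.1, 13.5, 13.8 and 12.1 CPM in control and at 11.5, 13.3, 12.3, 9.77 and 8.07 CPM in BrapcKO. Within B1 both controls lay above all 4 BrapcKO libraries, and within B2 the BrapcKO library lay below all 3 controls, while across codes the groups overlapped. The fit gave log2 -0.57 (SE 0.12, adjusted p = 0.012), and the call was lost without control 08 (0.077) or BrapcKO 21 (0.09). Sema4f, a transmembrane semaphorin found at excitatory synapses, stood at 40.5, 39.8, 32.8, 32.7 and 40.2 CPM in control and at 32.1, 34.9, 30.8, 31.5 and 26.2 CPM in BrapcKO. Its log2 fold change was -0.35 (SE 0.09, adjusted p = 0.031), and leaving out any of 6 single libraries ended the call.

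Sema7a encodes a GPI-anchored semaphorin that acts through plexin C1 and integrins, and Plxnc1 encodes that plexin. Sema7a stood at 174, 206, 146, 175 and 116 CPM in control and at 121, 131, 150, 105 and 115 CPM in BrapcKO. The groups overlapped, with control 24 near the low end of both. The log2 fold change was -0.50 (SE 0.13, adjusted p = 0.035), and leaving out any of 7 single libraries ended the call, with an adjusted p of up to 0.18 (without control 09). Its receptor Plxnc1 (chr10:94790866-94944835, minus strand) measured 112, 117, 95.2, 92.1 and 117 CPM in control and at 88.7, 83.4, 73.8, 92 and 75.1 CPM in BrapcKO, a fall of 26.1% (log2 -0.44, SE 0.09, adjusted p = 0.013). That made Plxnc1 the single call among 11 plexins and neuropilins. It too was lost without control 08 (0.052), control 09 (0.069) or BrapcKO 21 (0.07).

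Sema3f, a secreted class 3 semaphorin that binds neuropilin 2 and limits spine number on apical dendrites of cortical neurons, stood at 10.4, 12.3, 8.87, 10.9 and 10.7 CPM in control and at 10.1, 8.54, 5.95, 8.06 and 6.23 CPM in BrapcKO. A single BrapcKO library, 04, reached into the control range. The log2 fold change was -0.56 (SE 0.16, adjusted p = 0.046), which passed the threshold narrowly and was lost when any of 9 single libraries was left out. Its receptor genes Nrp2 (log2 0.13, adjusted p = 0.69) and Plxna3 (-0.31, 0.31) were not called.

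Among the 15 semaphorins that were not called, the smallest p belonged to Sema5b (11.8 ± 1.96 and 8.56 ± 1.48 CPM, log2 -0.51, adjusted p = 0.073) and Sema6c (11.4 ± 1.17 and 8.26 ± 1.79 CPM, log2 -0.53, adjusted p = 0.075). Both encode transmembrane semaphorins, and DESeq2 called both, with adjusted p of 0.034 and 0.028. The class 5 and class 6 semaphorins had negative log2 fold changes in the fit with title code, 2 of 2 and 4 of 4, and edgeR called 0 of these 6. Signs changed in other fits for Sema5a (0.03 without title code, 0.09 in flox/flox libraries), Sema6a (0.0008 in B1 alone) and Sema6b (0.06 in B1 alone, 0.05 without BrapcKO 21, 0.01 in flox/ko against flox/wt). At an unadjusted p under 0.05 stood 1 of the class 5 and 2 of the class 6 genes, and limma-voom called none. Sema3e, a ligand of plexin D1 expressed by deep-layer neurons, had groups that did not overlap, with 53.6 to 74.9 CPM in control and 76.3 to 106 CPM in BrapcKO, and a log2 fold change of 0.35 with an adjusted p of 0.13. Its receptor Plxnd1 averaged 134 ± 34.9 and 110 ± 17.3 CPM (log2 -0.34, adjusted p = 0.3). The plexin of highest mean CPM over all 10 libraries, Plxna4, a co-receptor for class 3 semaphorins, averaged 276 ± 40.5 and 335 ± 45.2 CPM (log2 0.19, adjusted p = 0.35). Plxna2, bound by class 6 semaphorins, averaged 300 ± 43.6 and 285 ± 41.3 CPM (log2 -0.23, adjusted p = 0.13).

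**Figure D2:**
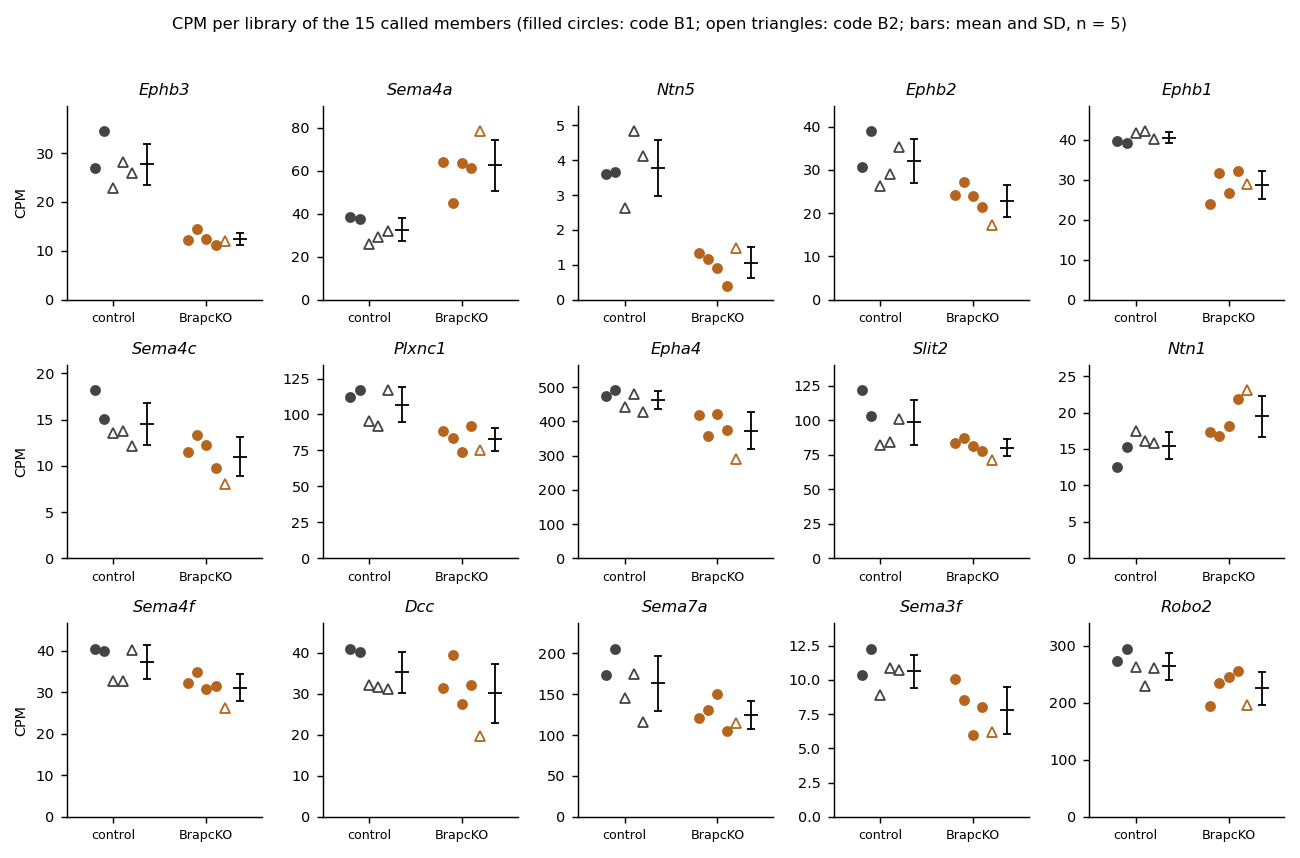
Each panel gives the CPM of a called member in the 10 libraries on an axis from 0, with filled circles for code B1, open triangles for code B2, and the mean and SD (n = 5) beside each group. Ephb3, Sema4a, Ntn5 and Ephb1 separate the groups, as do Epha4 and Plxnc1 by narrow gaps, while in Dcc, Sema7a and Robo2 points of the groups interleave.

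Slit2 encodes a large secreted ligand that repels axons through Robo receptors. It stood at 122, 103, 82.1, 84.5 and 101 CPM in control and at 83.7, 87.1, 81.3, 77.6 and 71.5 CPM in BrapcKO, with overlap between the groups but a separation within each title code. Slit2 fell by 24.3% (log2 -0.40, SE 0.09, adjusted p = 0.014) and lost its call without control 08 (0.1). Slit1 and Slit3 were not called, with log2 fold changes of 0.17 (interval -0.26 to 0.60) and -0.15 (interval -0.53 to 0.23).

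Of the receptors for Slits, Robo2 was called. It stood at 273, 295, 262, 230 and 261 CPM in control and at 194, 235, 245, 255 and 196 CPM in BrapcKO, so 3 BrapcKO libraries lay above the lowest control. The log2 fold change of -0.31 (SE 0.09, adjusted p = 0.049) passed the threshold by the smallest margin of all members and was lost when any of 8 single libraries was left out. Robo1, its close paralog, averaged 95.5 ± 8.26 and 87 ± 7.95 CPM (log2 -0.11, adjusted p = 0.54). Robo3, known for commissural axon crossing, ranged from 5.2 to 17.2 CPM in control alone (log2 -0.70, adjusted p = 0.14).

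The netrins held the largest fold change of the members. Ntn5 (chr7:45684022-45694556, plus strand) encodes a secreted protein of the netrin family and was expressed at a low level, 3.61, 3.65, 2.63, 4.82 and 4.12 CPM in control and 1.35, 1.18, 0.897, 0.391 and 1.49 CPM in BrapcKO. Every BrapcKO library lay below every control. Ntn5 fell by 69.6% (log2 -1.72, SE 0.31, interval -2.38 to -1.06, adjusted p = 0.0051) and stayed called when any single library was left out, with adjusted p between 0.0043 and 0.029. Of its exon length, 23.42% overlaps exons of Sec1 on the other strand. With the strand setting of the counting unknown here, the reads of the pair cannot be told apart in that stretch.

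Ntn1, the founding netrin and a ligand of Dcc and Unc5 receptors, was the second member that rose. It stood at 12.5, 15.3, 17.5, 16.1 and 15.8 CPM in control and at 17.4, 16.8, 18.2, 21.9 and 23.1 CPM in BrapcKO. Only control 22, at 17.5 CPM, reached into the BrapcKO range. The log2 fold change was 0.45 (SE 0.11, adjusted p = 0.024), and the call was lost without control 08 (0.12) or BrapcKO 21 (0.16). Ntn4, a netrin of basement membranes, averaged 12.6 ± 1.68 and 10.5 ± 1.41 CPM (log2 -0.38) and missed the threshold in edgeR at an adjusted p of 0.054. DESeq2 called Ntn4 (adjusted p = 0.025) and limma-voom did not (0.052).

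Dcc, the attractive netrin receptor, stood at 41, 40.2, 32, 31.6 and 31.1 CPM in control and at 31.5, 39.5, 27.4, 32.2 and 19.8 CPM in BrapcKO. Within B1 both controls lay above all BrapcKO libraries by a small margin over BrapcKO 05, and within B2 the BrapcKO library lay lowest. The log2 fold change was -0.44 (SE 0.11, adjusted p = 0.033), but without the title code it was -0.23 (adjusted p = 0.51), and leaving out any of 8 single libraries ended the call. The 4 Unc5 genes, which encode repulsive netrin receptors, had log2 fold changes from -0.13 to 0.15, and edgeR called 0 of them. No Unc5 gene reached an unadjusted p under 0.05, and DESeq2 and limma-voom called none. Ntng1 and Ntng2 encode GPI-anchored netrin-Gs that bind the synaptic proteins NGL1 and NGL2. Ntng1 averaged 49.2 ± 9.95 and 34.5 ± 5.74 CPM (log2 -0.56, adjusted p = 0.051), just over the threshold, and Ntng2 averaged 21.7 ± 7.5 and 15.2 ± 3.22 CPM (log2 -0.22, adjusted p = 0.46). DESeq2 and limma-voom called Ntng1 (adjusted p = 0.011 and 0.049) and not Ntng2 (0.49 and 0.41).

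Levels per exon length (CPM per kilobase) placed Epha4 first in control at 57.6 ± 3.31, followed by Sema7a at 49.6 ± 10.2, Ephb6 at 33.7 ± 3.37 and Sema6b at 29.6 ± 10.2. The lowest members were Robo4, a receptor of the endothelium, at 0.859 ± 0.305, Epha2 at 0.283 ± 0.0695 and Epha1 at 0.17 ± 0.156. Of the 68 steps between neighbours in this order, 67 joined genes whose control ranges overlapped, and the exception was the step from Robo4 to Epha2. On the same scale the 3 EphB receptors that fell stood mid-range or lower in control, with Ephb1 at 5.79 ± 0.188, Ephb3 at 4.16 ± 0.638 and Ephb2 at 2.54 ± 0.4. In BrapcKO their levels were 4.09 ± 0.489, 1.88 ± 0.187 and 1.81 ± 0.3. Sema4a moved from 6.02 ± 0.997 to 11.6 ± 2.18.

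**Figure D3:**
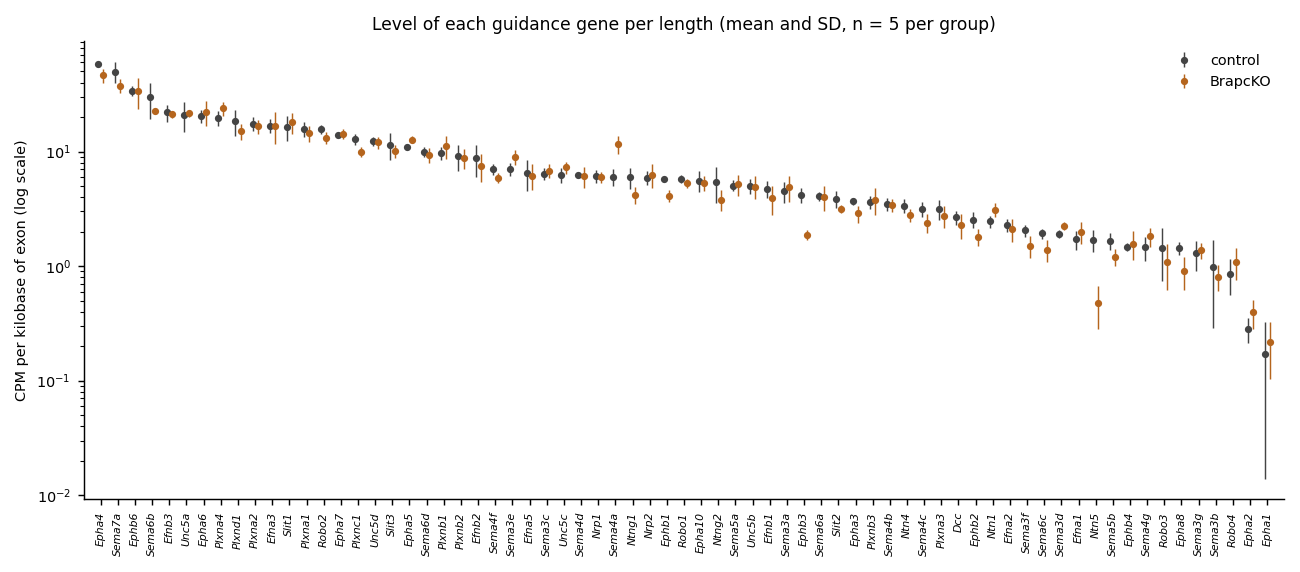
The plot gives the mean level of each of the 69 members per kilobase of exon on a log scale, with SD (n = 5), for control (grey) and BrapcKO (brown), ordered by the control mean. Levels run from 57.6 CPM per kilobase for Epha4 to 0.17 for Epha1, and the widest gaps between the groups are at Ephb3, Sema4a and Ntn5.

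The title code itself went with differences in the members. With the group as a term, 19 members (27.5%) differed between B2 and B1, beside 25.1% of all genes: 5 were higher in B2 (7.25%, beside 13.4% of all genes) and 14 lower (20.3%, beside 11.8%). Of the genes below, Efnb1, Efnb2 and Epha1 were chosen after their values were seen. All 3 ephrin-B genes were higher in B2, by log2 0.80 for Efnb2 (adjusted p = 3.7e-05), 0.50 for Efnb1 (0.015) and 0.32 for Efnb3 (0.024). Efnb2, a ligand of EphB receptors with known roles in vessels and synapses, stood at 37.8 to 49.6 CPM in the B1 libraries and at 64 to 78.5 CPM in the B2 libraries, whatever the group. Unc5c was lower in B2 (log2 -0.39, adjusted p = 0.0011), as were Plxna2 (-0.38, 0.0056) and Efna5 (-0.64, 0.016). Epha1 had the largest difference by code, log2 -2.72 (adjusted p = 0.00015), at 0.944 to 1.54 CPM in B1 and 0.0708 to 0.385 CPM in B2, close to the floor of the table.

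**Figure D4:**
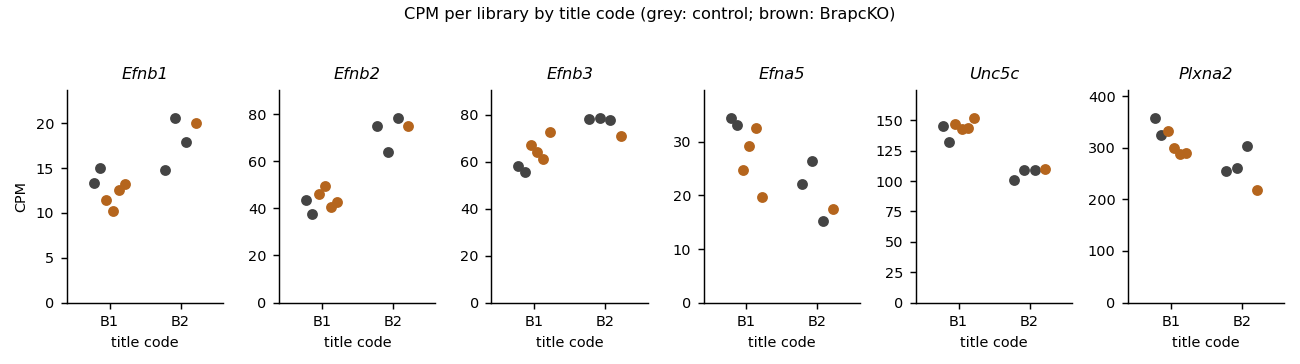
CPM per library is plotted on axes from 0 for 6 members that differed by title code, with grey points for control and brown points for BrapcKO. The B2 libraries lie above all B1 libraries for Efnb2 and below all of them for Unc5c, and the BrapcKO library of code B2 lies with the B2 controls in both.

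Of the 15 called members, 3 also differed by code: Dcc, Slit2 and Sema4c. Each of the 15 kept its direction in all 20 alternative fits. With B1 libraries alone (2 control, 4 BrapcKO), 3 members were called (4.35%), Ephb3, Ntn5 and Slit2, beside 2.91% of all genes. With B2 alone (3 control, 1 BrapcKO), Sema4a was called (adjusted p = 0.041), beside 0.381% of all genes, where the lone BrapcKO library is assumed to vary like the controls. Adding a Y-linked score to the title code left Ephb1, Ephb3, Ntn5 and Sema4a called (5.8% of the members), beside 2.24% of all genes. Without BrapcKO 21, Ephb3, Ntn5, Sema4a and Slit2 were called (5.8% of the members), beside 2.84% of all genes. DESeq2 called all 15 and 6 more (21 members or 30.4%, beside 11.8% of all genes). The limma-voom fit called all 15 and 2 more (17 or 24.6%, beside 8.21%). Only Ephb3, Sema4a and Ntn5 stayed called with every single library left out in turn.

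**Figure D5:**
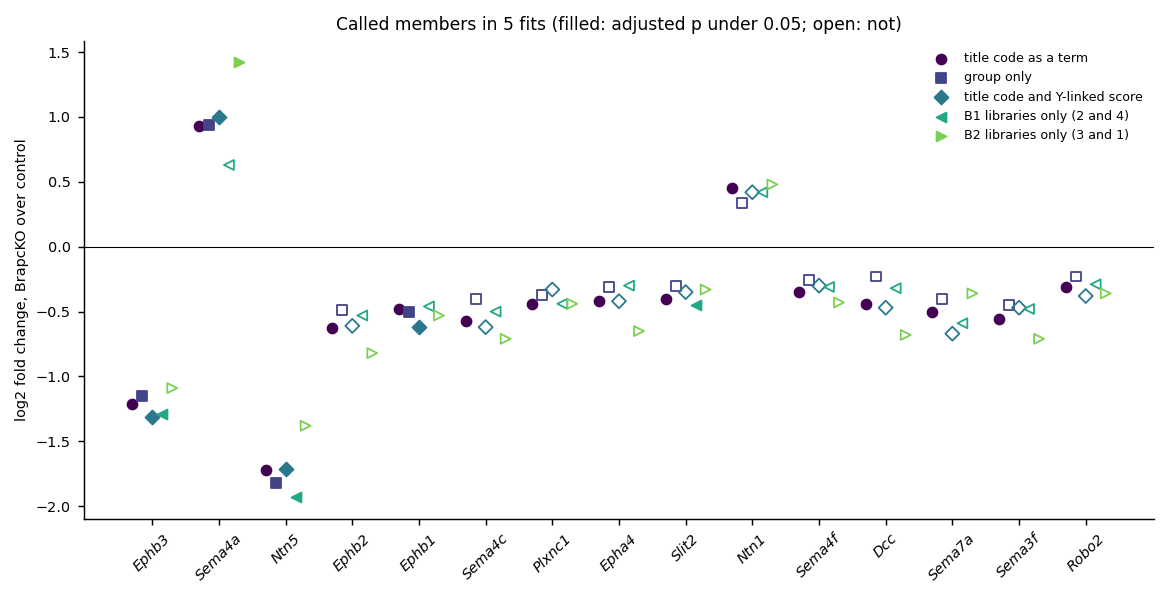
Log2 fold changes of the 15 called members are shown in 5 fits, with filled symbols for an adjusted p under 0.05 and open ones otherwise. All symbols of a gene lie on the same side of 0, and Ephb3, Sema4a, Ntn5 and Ephb1 are filled in the fits with title code, without it and with the Y-linked score.

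The genotypes allow a second reading, since each group holds 2 genotypes. In flox/ko Cre+ set against flox/wt Cre-, with title code, 8 members were called (11.6%, beside 4.84% of all genes): Ephb1, Ephb2, Ephb3, Epha4, Ntn1, Ntn5, Sema4a and Sema4c. Epha4 and Ntn1 passed narrowly, with adjusted p of 0.05 (rounded) and 0.049. Y-linked reads were uneven in these genotypes, high in BrapcKO 07 and 21 but not 04, and in control 23 but not 08 and 22. Between flox/flox Cre+ and flox/flox Cre-, Ephb3 (log2 -1.22, adjusted p = 0.014) and Plxnc1 (-0.67, 0.04) were called (2.9% of the members, beside 0.736% of all genes). The alleles are the same in this pair, but Y-linked reads were high in both Cre+ libraries and near 0 in both Cre- libraries. Cre and sex therefore cannot be told apart in it. With the Y-linked score in the edgeR fit of all libraries, Ephb3 stayed called (log2 -1.31, adjusted p = 0.0022) and Plxnc1 did not (-0.33, 0.22). Ephb3 fell by 1.18 on the log2 scale in the flox/ko against flox/wt pair (adjusted p = 0.0023). Sema4a showed log2 fold changes of 1.11 in the flox/ko against flox/wt pair (adjusted p = 0.007) and 0.59 in the flox/flox pair (0.26). The test of the difference between the pairs called 0 of 14276 genes in edgeR (0%), for Sema4a with an adjusted p of 0.84. It gave an unadjusted p under 0.05 for 873 of 14276 genes (6.12%) and for 10 of the 69 members, Plxnc1 and Sema4c among these. No other tool was run on it, and the lack of a call does not show that the pairs are alike.

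Inside the cell, guidance receptors act on the actin skeleton and on microtubules through exchange factors, kinases and adaptor proteins. A list of 77 such effectors and partners, all in the table, gave 2 genes higher and 8 lower, with a median log2 fold change of -0.03, where 3.12% of all genes were called higher and 4.95% lower. Of these 10 calls, 5 held without title code (Rnd1, Chn1, Ngef, Srgap1 and Vav2), 5 with the Y-linked score (Rnd1, Chn1, Ngef, Lrrc4 and Pak1), and 5 each without control 08, control 09 or BrapcKO 21. Rnd1, Chn1 and Ngef were called in all of these. Rnd1, whose product binds plexins, fell by 0.95 on the log2 scale (adjusted p = 0.0019), from 22.3 ± 1.96 to 11.9 ± 2.25 CPM. Of the genes known to work below Eph receptors, Ngef (ephexin 1), an exchange factor bound by EphA4, fell by 0.48 (adjusted p = 0.0052) and Chn1 (a chimaerin that inactivates Rac) by 0.42 (0.0033). Kalrn, an exchange factor of dendritic spines, fell by 0.41 (0.036). Vav2, an exchange factor recruited by Eph receptors, was higher (log2 0.50, adjusted p = 0.049). Below semaphorin receptors Mical2, an actin-oxidising enzyme, fell by 0.58 (0.0058), and the kinase Pak1 by 0.40 (0.018). Srgap1, whose product binds Robo receptors, was higher (log2 0.51, adjusted p = 0.011). Dscam, a co-receptor for netrin, fell by 0.36 (0.037), and Lrrc4, which encodes the netrin-G2 ligand NGL2, by 0.41 (0.0085).

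Some marker lists of cells and regions held calls between the groups as well, and 5 lists held none. In bulk tissue fewer cells of a type and less RNA per cell cannot be told apart. The cortical excitatory neuron list (12 genes, all expressed, summed at 2948 to 3622 CPM in control and 2722 to 3332 in BrapcKO) had 1 gene higher and 3 lower, and no list gene was at 0 in any library. Of 12 striatal markers 8 were higher and 0 lower (summed at 731 to 1429 CPM in control and 1142 to 2001 in BrapcKO). Of 10 interneuron markers 4 were higher and 1 lower (1236 to 1311 and 1402 to 2121 CPM). The 10 microglial markers, 1 of them called, higher, summed to 308 to 341 CPM in control, 395 to 461 CPM in 4 BrapcKO libraries and 1092 CPM in BrapcKO 05. Of 10 astrocyte markers (5414 to 7241 and 4965 to 9084 CPM, highest in BrapcKO 05) Gfap was higher and S1pr1 lower. Gfap, an intermediate filament of astrocytes, stood at 125 to 154 CPM in control and at 329, 1228, 855, 577 and 345 CPM in BrapcKO. Without BrapcKO 05, 17 members were called (24.6%), beside 9.58% of all genes. Oligodendrocyte markers summed to 3476 to 4860 and 2594 to 3569 CPM, with 0 of 10 called. Hippocampal markers (7 of 8 in the table, 413 to 543 and 415 to 820 CPM) had 1 higher and 1 lower, thalamic markers (8 of 9, 231 to 374 and 233 to 362 CPM) 1 lower and meningeal markers (9 of 10, 541 to 737 and 425 to 718 CPM) 1 lower. Choroid plexus markers, with 0 of 8 called, ran from 357 to 1096 CPM in 4 controls and reached 3666 CPM in control 24, beside 329 to 1199 CPM in BrapcKO. Precursors of oligodendrocytes (365 to 450 and 352 to 518 CPM), endothelial (134 to 275 and 193 to 351 CPM) and mural markers (166 to 291 and 227 to 328 CPM) had 0 of 10 called each. Over the 48 genes of the 5 lists with 0 calls in edgeR, 8 had an unadjusted p under 0.05, beside 3166 of all 14276 genes. Of the 48, DESeq2 called 2 and limma-voom 1. Of 15 immediate early genes 14 were lower (1118 to 1953 and 402 to 643 CPM). The part of any of these in the differences of guidance genes was not tested.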

How the data were processed

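The authors deposited a table of raw counts for 10 libraries. The submitters' processing notes name mm10 and GRCm38 as builds and, as tools, featureCounts, Subread, FastQC, edgeR and DESeq2. Versions, order and strand setting: not given in the sources used here. Every gene had at least 0.582 CPM in at least 5 libraries. Identifiers of 14271 of 14276 genes matched GENCODE M21 (13492 in the same version), and promoter windows came from RefSeq, GRCm38.p6. Counts were fitted with edgeR 4.0.16 in R 4.3.3 (TMM, robust quasi-likelihood F test, title code and group as terms), with Benjamini-Hochberg adjustment over all genes; its low-count filter removed 0. Differences of single members were also tested by exact permutation of log2 CPM (prior count 2) within title code. Alternatives were DESeq2 1.42.0, limma-voom 3.58.1, other terms, scalings and filters, and leaving out each library. The fit was tested on simulated data. The symbol rule uses no measured value, but the members and lists were chosen with earlier results of these data known. Named are all called members, then per family the 2 of smallest p among the rest and the 1 of highest mean CPM, and the effectors called; others are examples of ranges or partners of named genes.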

Additional observations from a re-analysis of the deposited data

Results flagged for a closer look

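A single value stood apart among the 68 groups checked, each a named member in 1 group of 5 libraries. Unc5c, a netrin receptor gene, stood at 110 CPM in BrapcKO 21 and at 143 to 152 CPM in the other BrapcKO libraries, a gap of 0.803 of the group's range. BrapcKO 21 is the single BrapcKO library of code B2, and the B2 controls stood at 101 to 109 CPM. Chance alone marks about 1 in 20 such groups.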

How the results depend on the processing

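Of 680 values (34 named members in 20 alternatives), 553 kept direction and side of the threshold, 103 lost a call, 17 gained one and 7 changed sign, none of the 7 in a called member. Those were Slit3 with the Y-linked score (0.05), Slit1 in B2 alone (-0.30), Efna3 by group only (-0.002), in B1 alone (-0.003) and without BrapcKO 21 (-0.01; up to 0.29 without another library), and Efnb3 by group only (-0.05) and in B2 alone (-0.15). Members called higher, 2 with title code, numbered 1 by group only, 1 with the Y-linked score, 0 in B1 alone and 1 in B2 alone, and 1 to 2 with a library left out. Members called lower, 13 with title code, numbered 3, 3, 3 and 0 in the same order, and 3 to 15 with a library left out: 5 without control 08, 6 without control 09 and 3 without BrapcKO 21. Effectors higher, 2 with title code, numbered 0 with the Y-linked score, 0 in B1 alone, 0 in B2 alone and 1 by limma-voom, and 0 to 3 with a library left out. Effectors lower, 8 with title code, numbered 3 by group only, 5 with the Y-linked score, 4 in B1 alone and 0 in B2 alone, and 4 to 13 with a library left out (13 without control 24). The median of the members moved from -0.11 to -0.34 in B2 alone and lay between -0.19 and -0.06 with a library left out. Fits of B1 or B2 alone used fewer libraries, and their medians also differed, at -0.05 in B1 and -0.34 in B2. For no setting was the cause of the smaller counts tested. Library totals in place of TMM called 11 members and DESeq2 21. No paired analysis was possible because the groups share no replicate number. Epha1 and, in BrapcKO, Ntn5 lay near 1 CPM or lower, rest on few counts and have wide intervals.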
